A study of Mus musculus with 9 samples.

Results

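Mouse orthologs of 8 genes that are recurrently mutated in human chronic lymphocytic leukemia (CLL) were examined in splenic B cells: Trp53, Atm, Sf3b1, Xpo1, Pot1a, Chd2, Ikzf3 and Fbxw7. They were listed by gene name, by a rule that uses no expression value but was made with earlier results of these data known, and are 8 of the 22174 genes in the deposited expression table. RNA was sequenced from 3 Eµ-MTCP1 mice, 3 Eµ-TCL1 mice and 3 wildtype mice on the C57/BL6NTac strain, with 1 library per mouse. Eµ-MTCP1 mice carry human MTCP1 (hMTCP1) and Eµ-TCL1 mice carry human TCL1A (hTCL1A), each driven by an immunoglobulin heavy chain variable promoter and the Eµ enhancer, which act in immature and mature B cells. The transgenic mice were age-matched and were taken once disease burden was significant, whereas the wildtype mice were littermates without hMTCP1. The Eµ-MTCP1 mice descend from 1 founder line, Z36. B cells were enriched from spleen by removal of other cells, so leukemic and normal B cells of a transgenic mouse were sequenced together. Messenger RNA levels are compared here, and mutations of these genes were not analysed.

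In human CLL these genes are known for recurrent mutation or deletion in the leukemic cell. They act in separate processes: p53 and the kinase ATM in the response to DNA breaks, SF3B1 in recognition of the branch site during splicing, XPO1 in nuclear export, POT1 in protection of the single-stranded telomere end, CHD2 in chromatin remodeling, the zinc finger protein Aiolos (IKZF3) in B-cell transcription, and FBXW7 as the subunit of a ubiquitin ligase that recognizes substrates such as NOTCH1, MYC and cyclin E. The mouse holds a pair of POT1 genes, Pot1a and Pot1b, of which the first is listed among the orthologs.

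Libraries held 6464089 to 8053017 reads on coding transcripts. The 3 Eµ-MTCP1 libraries had deposited normalized log2 values of hMTCP1 of 11.1 to 12.3, against 5.85 to 6.19 in the other 6 libraries, and the 3 Eµ-TCL1 libraries had values of hTCL1A of 14.9 to 15.6, against 6.04 to 6.96 elsewhere. All 7 B-cell markers summed here, among them Cd79a, Ms4a1 and Pax5, passed the expression filter, with a summed level of 31990 to 37050 counts per 1000000 reads (CPM) in wildtype, 24650 to 32830 for Eµ-MTCP1, and 23710 to 32830 for Eµ-TCL1 libraries. Markers of other cells were also present, with sums below those of the B-cell markers. The 10 T-cell markers summed to 456 to 470 CPM in wildtype, 444 to 881 for Eµ-MTCP1, and 454 to 861 for Eµ-TCL1 libraries, with Cd8a and Thy1 at 0 in all wildtype libraries. The 10 myeloid markers summed to 1040 to 4795, 823 to 2040 and 357 to 1563 CPM, the 6 plasma cell markers to 1228 to 1884, 840 to 3632 and 626 to 2873 CPM, the 6 NK-cell markers to 45.9 to 76.1, 18.2 to 23.01 and 2.95 to 120 CPM, and the 6 erythroid markers to 39.4 to 176, 24.8 to 288 and 21.5 to 70.1 CPM, in the same order of groups. Over the 10 myeloid markers the median log2 fold change was -0.62 in Eµ-MTCP1 and -1.08 in Eµ-TCL1, and 1 of the 10 was called, Cd68, which was higher in both models (2.06 and 1.91). An unadjusted p under 0.05 was found for 1 and 5 of the 10, and DESeq2 called 1 and 1. Over the 6 plasma cell markers the medians were 0.70 and 0.17, with Prdm1 higher in both models (2.11 and 1.83) and Mzb1 higher in Eµ-MTCP1 (1.66). The 15 proliferation genes summed to 662 to 1016 CPM in wildtype, 582 to 2084 for Eµ-MTCP1, and 819 to 1258 for Eµ-TCL1 libraries, with median log2 fold changes of 1.13 and 0.44. Of these 15 Mki67 alone was called, higher in Eµ-MTCP1 (1.73, adjusted p = 0.0409), where 8 had an unadjusted p under 0.05 and DESeq2 called 4. Medians over the 4 T-cell markers tested were 0.42 in Eµ-MTCP1 and 1.56 in Eµ-TCL1, with 0 called by edgeR, 2 and 2 at an unadjusted p under 0.05, and 1 and 0 called by DESeq2. Over the 7 B-cell, 4 NK-cell and 5 erythroid markers tested the medians were -0.09, -1.46 and 0.61 in Eµ-MTCP1 and -0.23, -0.35 and -1.38 in Eµ-TCL1. None of these 3 lists had a call by edgeR, while 0, 1 and 0 of their markers in Eµ-MTCP1 and 3, 0 and 0 in Eµ-TCL1 had an unadjusted p under 0.05, and DESeq2 called 2 of the B-cell markers in Eµ-TCL1 and 0 of the others. The part that these differences have in the values of the 8 orthologs was not tested.

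All 8 orthologs passed the expression filter that left 11165 genes. Counts were compared over all 9 libraries by edgeR's quasi-likelihood F test, and a gene was called at a p-value below 0.05 after Benjamini-Hochberg adjustment over all 11165 genes. In Eµ-MTCP1 against wildtype 0 of the 8 orthologs were called, where 9.48% of all genes were. In Eµ-TCL1 against wildtype 1 of the 8 was called, Chd2, which was lower, where 9.20% of all genes were called and 4.13% were called as lower. In Eµ-TCL1 against Eµ-MTCP1 0 of 8 were called, where 0.0448% of all genes were. At an unadjusted p under 0.05 the counts were 3, 2 and 0 of 8, where 25.0, 25.1 and 6.42% of all genes were counted, and DESeq2 called 1, 1 and 0. Fitted changes were below 0 for 6 orthologs in Eµ-MTCP1 and 5 in Eµ-TCL1, with a median log2 fold change of -0.39 and -0.26 over the 8, beside -0.02 and -0.01 over all genes. Both comparisons share the 3 wildtype libraries. In bulk samples, fewer cells of a type and less RNA per cell cannot be told apart.

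**Figure D1:**
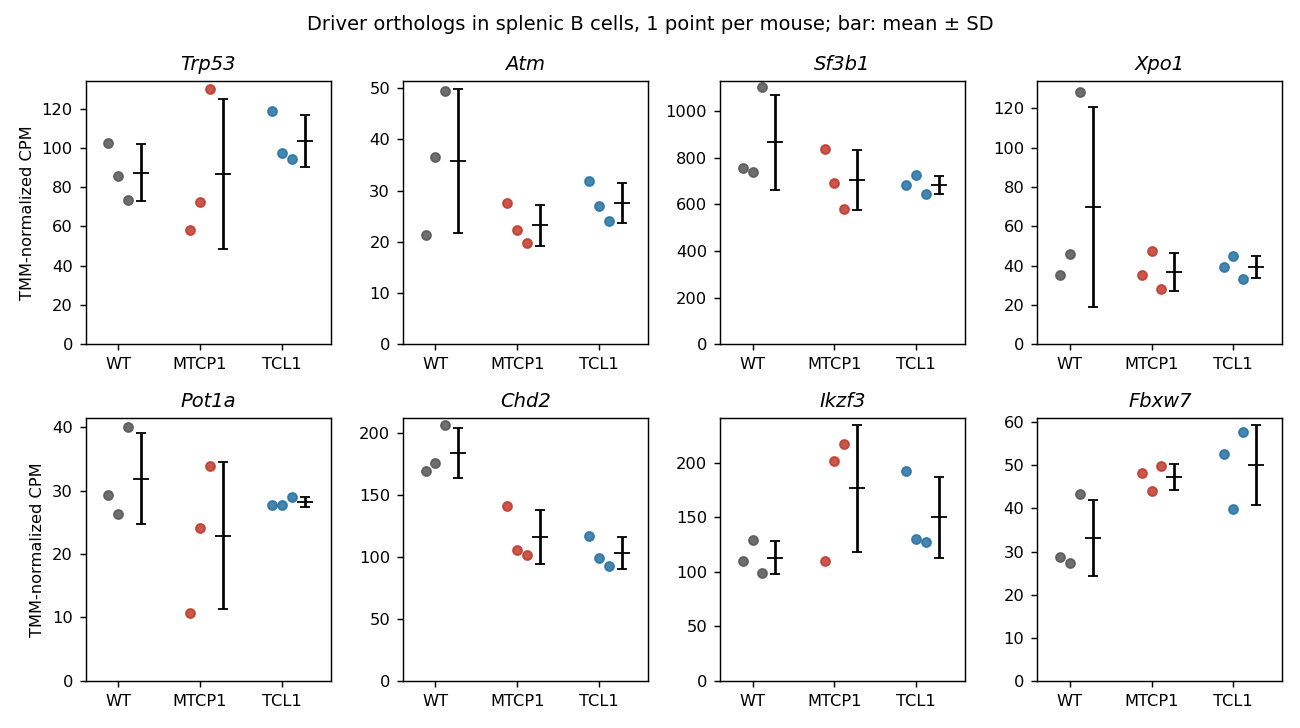
Level of each ortholog in CPM after TMM normalization (vertical axis, from 0) in wildtype (WT), Eµ-MTCP1 and Eµ-TCL1 mice, 1 point per mouse, with the mean and SD beside the points. Chd2 was at 169 to 207 CPM in wildtype mice and at 93.1 to 142 CPM in the 6 transgenic mice, and 1 wildtype mouse stood at 128 CPM for Xpo1.

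Levels were first compared between genes per coding length, in transcripts per 1000000 (TPM), in which reads are divided by effective transcript length. In wildtype B cells Sf3b1 was the most abundant of the 8, at 142 ± 32.2 TPM (SD, n = 3 for every mean). Chd2 at 48.2 ± 4.51, Trp53 at 47.3 ± 5.09 and Ikzf3 at 44.4 ± 11.2 TPM followed, and their wildtype ranges overlapped, so their order is not resolved. TPM also depends on how reads are divided among transcripts of unlike length. Chd2 has 11 coding transcripts, the longest of 5484 bases, Trp53 has 4 (longest 1173 bases) and Ikzf3 1 (1524 bases). In CPM these genes were at 184, 87.3 and 113 in wildtype, so the place of Chd2 beside them rests on that division. Xpo1 was at 19.3 ± 9.18 TPM, with a range of 12.9 to 29.8 that overlapped none of the other orthologs. Pot1a at 9.37 ± 1.93 and Fbxw7 at 7.01 ± 1.79 TPM overlapped each other, and Atm was lowest at 3.67 ± 0.986 TPM.

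In both models Sf3b1 was again highest, at 90.7 ± 7.20 TPM in Eµ-MTCP1 and 94.5 ± 5.98 in Eµ-TCL1, and Atm lowest, at 1.21 ± 0.576 and 1.88 ± 1.18 TPM. Ikzf3 was at 54.1 ± 17.8 and 48.3 ± 12.2 TPM, Trp53 at 36.1 ± 15.96 and 46.9 ± 5.16 TPM, and Chd2 at 25.4 ± 9.19 and 26.3 ± 6.14 TPM. In Eµ-MTCP1 the ranges of these 3 genes overlapped, so their order is not resolved there, whereas in Eµ-TCL1 Chd2, at 19.2 to 30.1 TPM, lay below Ikzf3 and Trp53 in every library. On this scale all 6 transgenic libraries lay below all 3 wildtype libraries for Sf3b1, Xpo1 and Chd2. The TPM scale carries no TMM factor, and on it 16.3% of all tested genes lay below wildtype in all 6 transgenic libraries and 4.44% above. On CPM after TMM the same shares were 9.14% and 9.44%, and of the 8 orthologs Chd2 alone lay below wildtype in all 6.

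**Figure D2:**
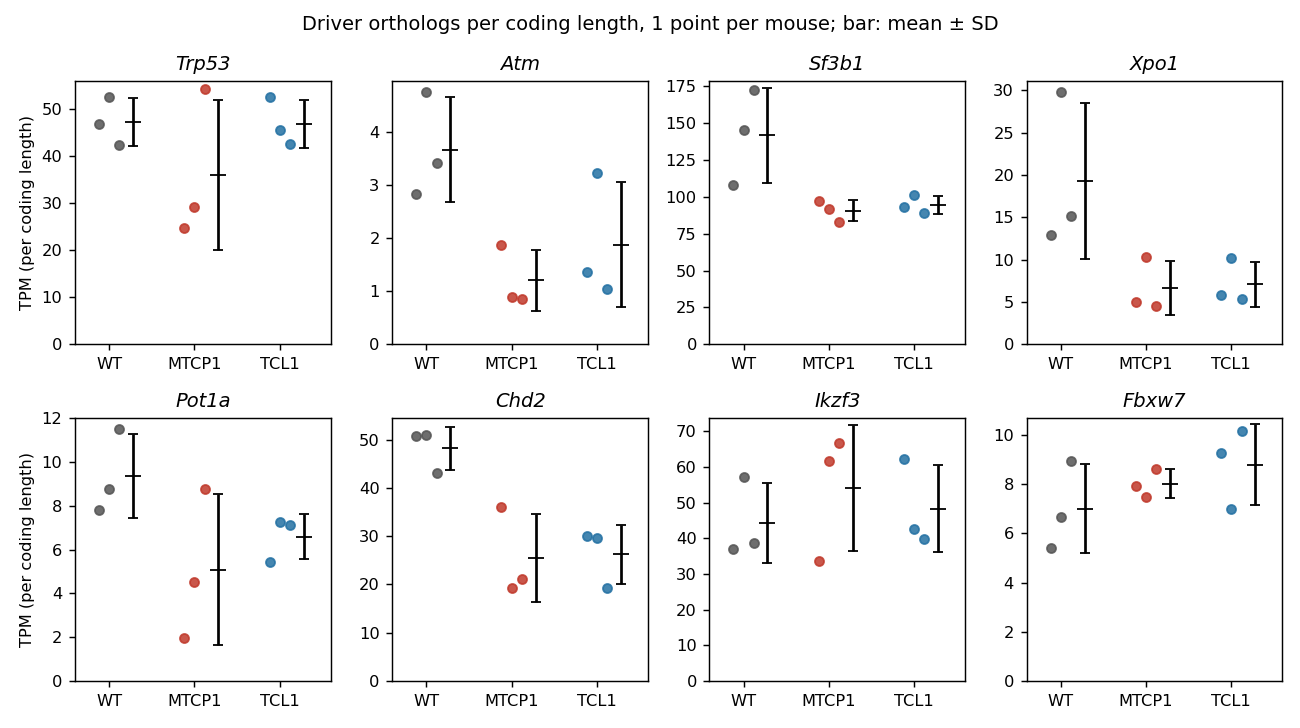
Level of each ortholog per coding length in TPM (vertical axis, from 0), 1 point per mouse, with the mean and SD beside the points. Sf3b1 was at 108 to 172 TPM in wildtype mice and 83.0 to 101 TPM in transgenic mice, and Xpo1 at 12.9 to 29.8 and 4.57 to 10.3 TPM.

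Chd2 (chr7:73426638-73541830 on the minus strand of GRCm38), an ATP-dependent chromatin remodeler of transcribed genes, was the one ortholog with a called change. Its level was 169, 176 and 207 CPM in the wildtype mice Z2785, Z2755 and Z2754. It was 142, 106 and 101 CPM in the Eµ-MTCP1 mice Z2641, Z2606 and Z2551. In the Eµ-TCL1 mice C1594, B4437 and B4376 it was 117, 99.7 and 93.1 CPM. Every transgenic mouse was below the lowest wildtype mouse. The log2 fold change was -0.83 ± 0.19 (SE) in Eµ-TCL1, or 0.561 of the wildtype level, with a 95% interval of -1.26 to -0.41 (adjusted p = 0.0215). In Eµ-MTCP1 it was -0.66 ± 0.19, or 0.632 of wildtype, with an interval of -1.08 to -0.24 and an adjusted p of 0.0547, on the other side of the threshold. The models themselves did not differ by the test, at -0.17 with an interval of -0.59 to 0.25 (adjusted p = 0.902).

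The call of Chd2 in Eµ-TCL1 was kept under 10 of 17 alternatives, with a log2 fold change between -0.98 and -0.60 throughout. The 10 include the fits without each of the Eµ-MTCP1 mice, which enter this comparison only through the shared fit. With 1 of the compared libraries left out, the call was kept only without Z2785 (adjusted p = 0.0388) or C1594 (adjusted p = 0.0389). It was lost without wildtype mouse Z2754 (-0.75, adjusted p = 0.0771) and without wildtype mouse Z2755 (-0.90, adjusted p = 0.0552), the library sequenced on a lane of its own. It was also lost without Eµ-TCL1 mouse B4437 (adjusted p = 0.0661) or B4376 (adjusted p = 0.0749), with counts on whole transcripts (adjusted p = 0.0638), with the deposited gene counts (adjusted p = 0.0570) and with transcript-length offsets (adjusted p = 0.196). In Eµ-MTCP1 it was gained with DESeq2 (adjusted p = 0.0145), with library size alone as scaling (adjusted p = 0.0144) and without Eµ-MTCP1 mouse Z2641 (-0.86, adjusted p = 0.0276), over a range of -0.90 to -0.57.

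The noncoding gene 1810026B05Rik, on the same strand (chr7:73539203-73558395), overlaps the start of Chd2 over 2628 bases, and was looked at after the values of Chd2 were seen. It is not among the coding sequences, so no reads were assigned to it there. On whole transcripts it had 270, 883 and 1465 reads in the wildtype mice Z2785, Z2755 and Z2754, 280, 391 and 253 in the Eµ-MTCP1 mice and 553, 496 and 309 in the Eµ-TCL1 mice, in the order given for Chd2. Its log2 fold change was -1.13 ± 0.43 in Eµ-MTCP1 (adjusted p = 0.133) and -0.73 ± 0.42 in Eµ-TCL1 (adjusted p = 0.324), neither of them called.

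Of 9 other CHD remodelers 8 were tested, of which 0 were called in Eµ-MTCP1 and 1, Chd3, fell in Eµ-TCL1, with medians of -0.04 and -0.28 over the list. In Eµ-MTCP1 1 of the 8 had an unadjusted p under 0.05, and DESeq2 called 1, whereas in Eµ-TCL1 these counts were 2 and 2. Chd3, a core ATPase of the NuRD complex, was at 70.0 ± 10.4 CPM in wildtype, 14.3 ± 11.3 with Eµ-MTCP1 and 5.86 ± 1.67 with Eµ-TCL1. Its log2 fold change was -3.58 ± 0.70 in Eµ-TCL1 (adjusted p = 0.00980) and -2.28 ± 0.65 in Eµ-MTCP1 (adjusted p = 0.0537).

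**Figure D3:**
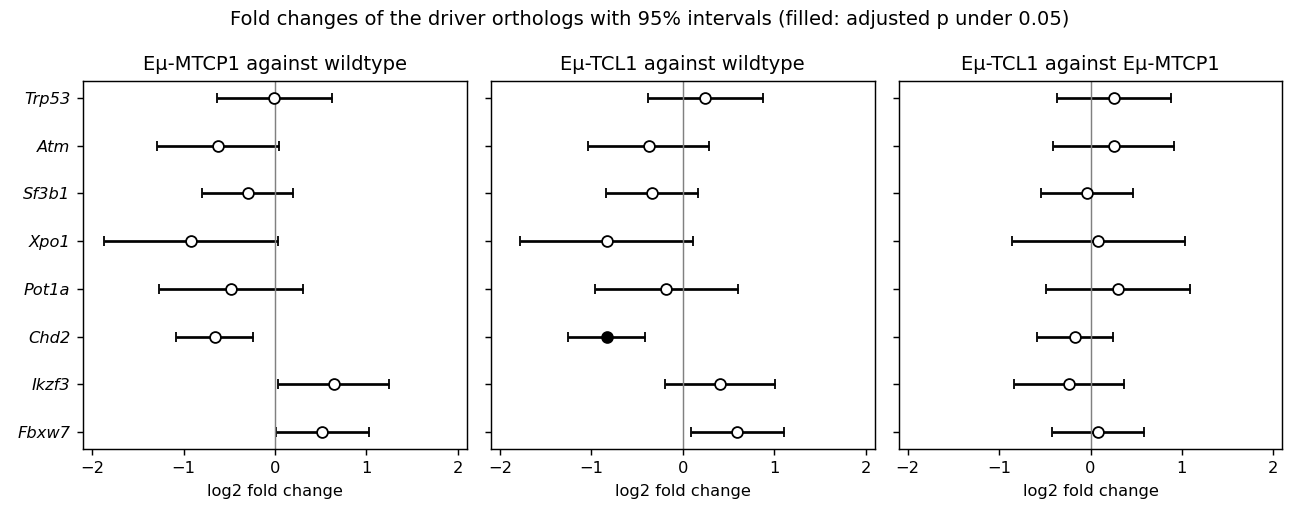
Log2 fold change (horizontal axis) of each ortholog with its 95% interval in the 3 comparisons, with a filled point where the adjusted p was under 0.05. The interval of Chd2 lay below 0 in both comparisons with wildtype, at -1.08 to -0.24 and -1.26 to -0.41, and that of Xpo1 was the widest, at -1.87 to 0.03 and -1.78 to 0.11.

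Xpo1 (chr11:23256041-23298249, plus strand), the export receptor for proteins with leucine-rich signals, had the largest fitted change of the 8 in Eµ-MTCP1, and it rested on 1 wildtype mouse. Its level was 35.2 CPM in wildtype mouse Z2785, 45.9 in Z2755 and 128 in Z2754. It was 35.0, 47.4 and 28.2 CPM in the Eµ-MTCP1 mice and 39.5, 44.8 and 33.3 CPM in the Eµ-TCL1 mice. The transgenic mice thus lay around the levels of 2 wildtype mice, with the remaining one far above all others. In Eµ-MTCP1 the log2 fold change was -0.92 ± 0.43 (adjusted p = 0.213), and in Eµ-TCL1 -0.83 ± 0.43 (adjusted p = 0.259). Without Z2754 it was -0.15 (adjusted p = 0.798) and -0.06 (adjusted p = 0.936). The ratio of the highest to the lowest wildtype library was 3.65 for Xpo1, more than for 97.5% of the 7769 genes with a mean of at least 10 CPM, whose median ratio was 1.44.

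Per length the picture of Xpo1 differed: 12.9, 29.8 and 15.2 TPM in the wildtype mice Z2785, Z2755 and Z2754, against 5.03, 10.3 and 4.57 in the Eµ-MTCP1 and 5.87, 10.1 and 5.29 in the Eµ-TCL1 mice. Here Z2755 rather than Z2754 was the highest, and the groups did not overlap. With transcript-length offsets in the test the log2 fold changes were -1.14 (adjusted p = 0.110) and -1.14 (adjusted p = 0.105). Of 26 other karyopherins and members of the Ran cycle, all tested, 0 were called in either model, with medians of -0.11 in Eµ-MTCP1 and 0.07 in Eµ-TCL1. At an unadjusted p under 0.05 these counts were 4 and 4, and DESeq2 called 2 and 0.

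Sf3b1 (chr1:54985169-55027481, minus strand), the largest subunit of the SF3b complex, was at 757, 739 and 1103 CPM in the wildtype mice Z2785, Z2755 and Z2754. It was at 837, 693 and 580 CPM in the Eµ-MTCP1 mice and 683, 725 and 646 CPM in the Eµ-TCL1 mice. Z2754 was again the highest library, and the Eµ-TCL1 mice lay below all wildtype mice, as did 16.1% of all tested genes. Its log2 fold change was -0.30 ± 0.23 in Eµ-MTCP1 (adjusted p = 0.438) and -0.34 ± 0.23 in Eµ-TCL1 (adjusted p = 0.389), and without Z2754 -0.10 and -0.14. Among 20 other SF3a, SF3b and 3′ splice site factors, all tested, Phf5a, a small SF3b subunit that contacts SF3B1, rose in Eµ-MTCP1, from 31.0 ± 6.56 to 53.5 ± 7.22 CPM (log2 fold change 0.79 ± 0.22, adjusted p = 0.0495). This call was lost with any 1 library left out. In Eµ-TCL1 Phf5a was at 46.4 ± 7.60 CPM (0.59 ± 0.22, adjusted p = 0.127), and 0 of 20 were called by edgeR or DESeq2, with 1 at an unadjusted p under 0.05. The medians of the list were 0.10 and -0.10.

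Atm (chr9:53439149-53536740, minus strand), the kinase that is activated by DNA double-strand breaks, had the lowest level per length and the longest coding sequence of the 8, 9201 bases. It was at 21.3, 36.6 and 49.4 CPM in the wildtype mice Z2785, Z2755 and Z2754, from 141, 337 and 399 reads. It was at 27.6, 22.3 and 19.7 CPM in the Eµ-MTCP1 and at 31.8, 27.0 and 24.1 CPM in the Eµ-TCL1 mice. The wildtype range held every transgenic mouse except the Eµ-MTCP1 mouse Z2551. Fitted log2 fold changes were -0.63 ± 0.30 in Eµ-MTCP1 (adjusted p = 0.224) and -0.37 ± 0.30 in Eµ-TCL1 (adjusted p = 0.477). Without Z2754 these were -0.33 (adjusted p = 0.578) and -0.08 (adjusted p = 0.919), and with transcript-length offsets -1.25 (adjusted p = 0.122) and -0.70 (adjusted p = 0.362).

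Over the 9 libraries the 4 highest coefficients between orthologs, by Pearson's r of log2 CPM, were 0.85 for Sf3b1 with Xpo1, 0.83 for Atm with Xpo1, 0.79 for Sf3b1 with Chd2 and 0.78 for Atm with Sf3b1. Without Z2754 these were 0.42, 0.55, 0.65 and 0.44 over 8 libraries, and the highest was then that of Trp53 with Pot1a, at 0.86 (0.61 over all 9). The libraries share their preparation and differ in group, so these are descriptions with no test. The bases before the annotated starts of Atm, Sf3b1 and Xpo1 are given below from the RefSeq promoter table (build GRCm38.p6), without any annotated exon, because these are the genes of the 4 pairs that have an entry there. Capitals mark the CCAAT box (CCAAT) and the GC box (GGGCGG), searched on both strands, and no 2 matches overlapped.
Atm, chr9:53536741-53536921, minus strand: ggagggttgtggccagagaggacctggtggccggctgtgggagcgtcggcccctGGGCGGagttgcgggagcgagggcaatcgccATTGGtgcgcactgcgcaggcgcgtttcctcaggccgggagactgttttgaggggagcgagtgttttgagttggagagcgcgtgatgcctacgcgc
Sf3b1, chr1:55027482-55027728, minus strand: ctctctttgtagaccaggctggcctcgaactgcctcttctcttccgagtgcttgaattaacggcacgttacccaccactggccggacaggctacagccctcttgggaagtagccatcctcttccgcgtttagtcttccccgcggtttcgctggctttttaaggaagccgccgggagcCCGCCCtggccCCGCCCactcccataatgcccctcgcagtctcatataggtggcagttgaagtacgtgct
Xpo1, chr11:23255791-23256040, plus strand: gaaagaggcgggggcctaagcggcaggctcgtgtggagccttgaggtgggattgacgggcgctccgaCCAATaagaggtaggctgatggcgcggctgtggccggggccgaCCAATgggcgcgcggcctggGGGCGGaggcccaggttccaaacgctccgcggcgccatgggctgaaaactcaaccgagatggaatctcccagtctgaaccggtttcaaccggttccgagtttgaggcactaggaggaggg
The Atm sequence holds 1 CCAAT box and 1 GC box, that of Sf3b1 0 and 2, and that of Xpo1 2 and 1. Of all 32851 promoter entries, 33.8% hold a CCAAT box and 32.7% a GC box in the 250 bases before the start, so both are common. Entries were found for 6 of the 8 orthologs, all but Chd2 and Ikzf3.

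The Atm sequence lies between Atm and Npat, a coactivator of histone gene transcription that is read in the opposite direction from a start 306 bases away. Npat was at 22.5, 20.1 and 25.3 CPM in the wildtype mice Z2785, Z2755 and Z2754, without the spread seen for Atm. In the Eµ-MTCP1 mice it was at 33.9, 21.3 and 18.4 CPM and in the Eµ-TCL1 mice at 27.3, 19.9 and 19.2 CPM. Npat had log2 fold changes of 0.12 ± 0.28 (adjusted p = 0.825) and -0.03 ± 0.28 (adjusted p = 0.961). Whether Atm and Npat differ in their change was not tested. Of 26 other DNA damage kinases and break repair genes, all tested, Nbn, a subunit of the MRN complex that recruits ATM to breaks, fell in Eµ-MTCP1 from 31.8 ± 12.1 to 12.1 ± 4.74 CPM (-1.39 ± 0.35, adjusted p = 0.0347). In Eµ-TCL1 Nbn was at 16.6 ± 2.92 CPM (-0.93 ± 0.35, adjusted p = 0.125). Xrcc6, which encodes the DNA end-binding protein Ku70, rose in Eµ-TCL1 from 48.0 ± 4.08 to 81.9 ± 11.7 CPM (0.77 ± 0.17, adjusted p = 0.0188), and in Eµ-MTCP1 it was at 70.8 ± 3.28 CPM (0.56 ± 0.17, adjusted p = 0.0683). The medians of the list were -0.06 and -0.05.

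Trp53 (chr11:69580359-69591873, plus strand), which encodes the transcription factor p53, was at 103, 85.9 and 73.6 CPM in the wildtype mice Z2785, Z2755 and Z2754. It was at 58.0, 72.3 and 130 CPM in the Eµ-MTCP1 mice Z2641, Z2606 and Z2551, which were the lowest, the second lowest and the highest of the 9 libraries. In the Eµ-TCL1 mice it was at 119, 97.6 and 94.5 CPM. The log2 fold change was -0.01 ± 0.28 in Eµ-MTCP1 with a 95% interval of -0.64 to 0.62 (adjusted p = 0.988), and 0.25 ± 0.28 in Eµ-TCL1 with an interval of -0.38 to 0.87 (adjusted p = 0.637). Changes of Trp53 messenger RNA within these intervals could not be told from the spread between mice.

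Among 34 p53 targets and regulators 28 were tested, of which 0 rose and 3 fell in Eµ-MTCP1, and 1 rose and 3 fell in Eµ-TCL1, with medians of 0.03 and 0.17 over the list. These are 10.7% and 14.3% of the list, beside 9.48% and 9.20% of all genes, so nothing particular to the list is read from them. Gadd45a, a stress gene that p53 induces, fell in both models, from 32.6 ± 1.47 CPM in wildtype to 12.4 ± 2.23 in Eµ-MTCP1 (-1.39 ± 0.38, adjusted p = 0.0474) and 10.03 ± 5.58 in Eµ-TCL1 (-1.70 ± 0.39, adjusted p = 0.0212). Ddb2, a damage recognition factor of nucleotide excision repair, also fell in both, with log2 fold changes of -1.54 ± 0.25 (adjusted p = 0.00365) and -1.17 ± 0.24 (adjusted p = 0.0141). Sesn1, a stress-induced inhibitor of mTORC1 signaling, fell in Eµ-MTCP1 from 89.6 ± 17.9 to 26.8 ± 13.4 CPM (-1.74 ± 0.37, adjusted p = 0.0162), and in Eµ-TCL1 it was at 37.5 ± 9.58 CPM (-1.26 ± 0.36, adjusted p = 0.0569). Plk3, a stress-responsive polo-like kinase, fell in Eµ-TCL1 from 35.7 ± 13.9 to 10.7 ± 2.30 CPM (-1.74 ± 0.40, adjusted p = 0.0215), and in Eµ-MTCP1 it was at 13.5 ± 6.002 CPM (-1.40 ± 0.39, adjusted p = 0.0510). Phlda3, a p53 target that represses Akt signaling, rose in Eµ-TCL1 from 0.273 ± 0.234 to 2.58 ± 0.110 CPM (3.12 ± 0.77, adjusted p = 0.0300), a gene of few reads in wildtype. With 1 library left out the number called ranged from 1 to 4 in Eµ-MTCP1 and from 0 to 5 in Eµ-TCL1, and under the other alternatives from 4 to 7 and from 4 to 6.

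Pot1a (chr6:25743737-25809246, minus strand), which binds the single-stranded telomere end, varied most among Eµ-MTCP1 mice, at 10.7 CPM in Z2641, 24.1 in Z2606 and 33.8 in Z2551, from 65, 170 and 206 reads. It was at 29.3, 26.4 and 40.0 CPM in the wildtype mice Z2785, Z2755 and Z2754 and at 27.7, 27.8 and 29.0 CPM in the Eµ-TCL1 mice C1594, B4437 and B4376. The spread among Eµ-MTCP1 mice, a ratio of 3.15 between the highest and the lowest, was larger than that of 91.8% of genes in this group, whereas the ratio of 1.05 among Eµ-TCL1 mice was larger than that of 1.45% of genes. Fitted log2 fold changes were -0.48 ± 0.36 in Eµ-MTCP1 (adjusted p = 0.434) and -0.18 ± 0.35 in Eµ-TCL1 (adjusted p = 0.797). Without Z2641, which was also lowest for Trp53, the Eµ-MTCP1 value was -0.18 (adjusted p = 0.730). Pot1b, the near copy with which reads could be shared, was at 6.25 ± 1.14 CPM in wildtype, 5.90 ± 2.004 with Eµ-MTCP1 and 8.32 ± 2.27 with Eµ-TCL1, with log2 fold changes of -0.08 ± 0.39 (adjusted p = 0.911) and 0.41 ± 0.39 (adjusted p = 0.555). Per length Pot1b was at 4.14 ± 1.49, 4.13 ± 2.29 and 5.73 ± 2.09 TPM, against 9.37 ± 1.93, 5.09 ± 3.45 and 6.60 ± 1.02 TPM for Pot1a in the same order of groups. Pot1a was the higher of the pair in all wildtype libraries, but Pot1b was higher in the Eµ-MTCP1 mouse Z2641 (3.01 against 1.97 TPM) and in the Eµ-TCL1 mouse B4376 (8.13 against 7.11 TPM). By reads on coding transcripts Pot1a was the higher in every library, with 65 against 30 in Z2641 and 210 against 75 in B4376, whereas on whole transcripts Pot1b was again higher in Z2641 (214 against 102 reads) and lower in the other 8 libraries. In the deposited gene counts Pot1a was the higher in every library, with 125 against 34 reads in Z2641.

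Of 16 other shelterin, CST and telomerase genes, all tested, 2 rose in Eµ-MTCP1 and 1 in Eµ-TCL1, with medians of 0.28 and 0.03. In Eµ-MTCP1 the number called was 0 with library size alone, 0 to 2 under all other processing and 0 to 2 with 1 library left out. In Eµ-TCL1 it was 1 under other processing and 0 to 1 with 1 library left out. Nhp2, a protein of the H/ACA particle that stabilizes telomerase RNA, rose in both, from 90.9 ± 10.9 CPM in wildtype to 159 ± 35.6 in Eµ-MTCP1 (0.80 ± 0.20, adjusted p = 0.0303) and 181 ± 2.92 in Eµ-TCL1 (0.99 ± 0.20, adjusted p = 0.0116). Tinf2, which links shelterin subunits, rose in Eµ-MTCP1 from 40.3 ± 2.89 to 62.8 ± 4.48 CPM (0.64 ± 0.17, adjusted p = 0.0392). In Eµ-TCL1 Tinf2 was at 53.7 ± 5.71 CPM (0.41 ± 0.17, adjusted p = 0.156).

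Ikzf3 (chr11:98464902-98546031, minus strand), which encodes Aiolos, a transcription factor of B-cell maturation, was at 110, 130 and 99.2 CPM in the wildtype mice Z2785, Z2755 and Z2754. The Eµ-MTCP1 mice Z2606 and Z2551 were at 202 and 217 CPM, and Z2641, at 110 CPM, was within the wildtype range. The Eµ-TCL1 mouse C1594 was at 193 CPM, with B4437 at 130 and B4376 at 128 CPM. In each model some mice were thus above all wildtype mice and others beside them. The log2 fold change was 0.64 ± 0.27 in Eµ-MTCP1 with an interval of 0.04 to 1.25 (adjusted p = 0.177) and 0.41 ± 0.27 in Eµ-TCL1 with an interval of -0.20 to 1.01 (adjusted p = 0.391). Without Z2641 it was 0.86 in Eµ-MTCP1 and was called (adjusted p = 0.0414), whereas without Z2551 it was 0.47 (adjusted p = 0.422). Of 15 other members and partners of the Ikaros family 13 were tested, with 0 called in Eµ-MTCP1 (4 at an unadjusted p under 0.05, 1 by DESeq2) and 1 in Eµ-TCL1 (5 and 3), and medians of -0.23 and -0.37. Ebf1, a transcription factor that specifies B cells, fell in Eµ-TCL1 from 403 ± 71.8 to 221 ± 15.7 CPM (-0.87 ± 0.18, adjusted p = 0.0139), and in Eµ-MTCP1 it was at 267 ± 10.7 CPM (-0.59 ± 0.18, adjusted p = 0.0666).

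Transcripts of each ortholog were compared on the standard reference, which includes untranslated and intron-retaining transcripts. For each gene the share of its reads on its most abundant transcript was tested between the 6 transgenic and the 3 wildtype mice by a two-sided exact permutation test over 84 choices, whose smallest p is 0.0119. The protein-coding transcript Ikzf3-201 took 72.2, 72.0 and 72.0% of Ikzf3 reads in the wildtype mice Z2785, Z2755 and Z2754. It took 78.2, 80.4 and 80.7% in the Eµ-MTCP1 mice and 82.6, 77.8 and 76.3% in the Eµ-TCL1 mice. The groups did not overlap, in 1 of the 8 orthologs and in 5.02% of 8619 tested genes with several transcripts and at least 20 reads in every library, with a difference of 7.27 percentage points and the smallest exact p of 0.0119, which is 0.0952 after adjustment over the 8 orthologs, so that no single ortholog could have been called in this design, whatever its shift. The transcript Ikzf3-203, annotated with a retained intron and described after the values were seen, took 18.5, 20.3 and 21.8% of the reads in wildtype mice, and with Eµ-MTCP1 13.4, 8.90 and 9.17%, with Eµ-TCL1 7.19, 11.0 and 11.9%. Shares by TPM, which weigh short transcripts more, gave a difference of -2.46 points for Ikzf3-201, the opposite direction, so the difference holds for shares of reads only. The reference with coding sequences holds 1 transcript of Ikzf3, and there the share is fixed.

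**Figure D4:**
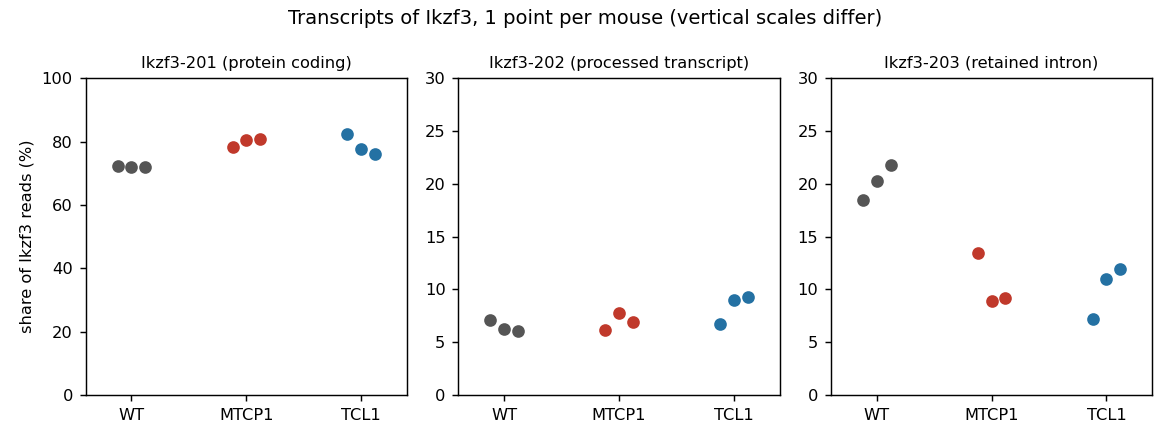
Share of Ikzf3 reads (vertical axis, %) on the 3 most abundant Ikzf3 transcripts, 1 point per mouse, with vertical scales that differ between panels. Ikzf3-201 was at 72.0 to 72.2% in wildtype mice and 76.3 to 82.6% in transgenic mice, and Ikzf3-203 at 18.5 to 21.8% and 7.19 to 13.4%.

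For the other 7 orthologs the exact permutation p of the most abundant transcript was 0.190 to 0.869. Chd2-203 held 82.4 ± 1.49% of Chd2 reads in wildtype and 82.1 ± 1.48% in transgenic mice (n = 3 and 6), a difference of -0.287 points. Sf3b1-201 held 85.8 ± 1.17 and 84.6 ± 1.32% and Trp53-203 held 77.8 ± 0.734 and 83.0 ± 5.83%. The transcripts of Atm, Xpo1, Pot1a and Fbxw7 were apportioned less evenly between libraries. Atm-201 took 32.1 to 85.7% of Atm reads over the 6 transgenic libraries, and Pot1a-203 took 52.0 to 93.8% of Pot1a reads.

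Fbxw7 (chr3:84815268-84979198, plus strand), the substrate receptor of an SCF ubiquitin ligase, was at 28.7, 27.2 and 43.2 CPM in the wildtype mice Z2785, Z2755 and Z2754. It was at 48.2, 44.0 and 49.9 CPM in the Eµ-MTCP1 mice, all above wildtype, as were 14.7% of all tested genes in that comparison. Per length these groups overlapped, at 5.40 to 8.94 TPM in wildtype and 7.46 to 8.63 TPM in Eµ-MTCP1. They also overlapped on whole transcripts in CPM without TMM, at 28.4 to 44.5 and 36.8 to 42.7. In the Eµ-TCL1 mice Fbxw7 was at 52.7, 39.8 and 57.7 CPM after TMM, and B4437 was below wildtype mouse Z2754. The log2 fold change was 0.52 ± 0.23 in Eµ-MTCP1 with an interval of 0.01 to 1.02 (adjusted p = 0.190) and 0.60 ± 0.23 in Eµ-TCL1 with an interval of 0.09 to 1.103 (adjusted p = 0.134). Without Z2754, the highest wildtype mouse, it was 0.75 (adjusted p = 0.0892) and 0.83 (adjusted p = 0.0635).

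Of 21 other SCF ligase genes and FBXW7 substrates, all tested, 2 rose in Eµ-MTCP1 and 1 in Eµ-TCL1, with medians of -0.01 and 0.03. Ccne1, which encodes cyclin E1, a substrate of FBXW7, rose in both, from 6.36 ± 2.67 CPM in wildtype to 23.9 ± 5.44 in Eµ-MTCP1 (1.90 ± 0.35, adjusted p = 0.00814) and 19.4 ± 4.62 in Eµ-TCL1 (1.60 ± 0.35, adjusted p = 0.0176). Rbx1, the RING subunit of cullin ligases, rose in Eµ-MTCP1 from 79.9 ± 12.7 to 145 ± 21.6 CPM (0.86 ± 0.19, adjusted p = 0.0207) and was at 116 ± 14.9 CPM in Eµ-TCL1 (0.54 ± 0.19, adjusted p = 0.114).

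The models were compared with each other for all 8 orthologs. Fitted differences of Eµ-TCL1 from Eµ-MTCP1 lay between -0.23 for Ikzf3 and 0.30 for Pot1a on the log2 scale, with adjusted p-values from 0.900 to 0.987. The intervals were narrowest for Chd2, at -0.59 to 0.25, and widest for Xpo1, at -0.86 to 1.04. Each interval leaves room for a difference in either direction with 3 mice per group, so the models are not shown to be alike.

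Besides the 8 orthologs, 60 other genes recurrently mutated in CLL were listed, of which 56 were tested. In Eµ-MTCP1 1 rose and 4 fell, and in Eµ-TCL1 0 rose and 2 fell, with medians of -0.11 and -0.09. Klhl6, an adaptor of a cullin ligase needed for germinal centers, fell in both, from 189 ± 17.1 CPM in wildtype to 56.0 ± 9.11 in Eµ-MTCP1 (-1.76 ± 0.21, adjusted p = 0.000901) and 46.5 ± 10.7 in Eµ-TCL1 (-2.02 ± 0.22, adjusted p = 0.000405). Cxcr4, the receptor for the homing chemokine CXCL12, fell from 85.1 ± 4.21 CPM to 27.98 ± 20.7 (-1.60 ± 0.42, adjusted p = 0.0395) and 24.7 ± 5.77 (-1.78 ± 0.42, adjusted p = 0.0250). In Eµ-MTCP1, Map2k1, a kinase of the ERK pathway, fell from 116 ± 9.28 to 56.6 ± 14.9 CPM (-1.03 ± 0.23, adjusted p = 0.0182), and Birc3, a ubiquitin ligase that restrains noncanonical NF-κB signaling, from 242 ± 25.5 to 125 ± 12.9 CPM (-0.95 ± 0.23, adjusted p = 0.0276). In Eµ-TCL1 these were at 74.6 ± 12.5 CPM (-0.64 ± 0.22, adjusted p = 0.109) and 183 ± 52.5 CPM (-0.40 ± 0.23, adjusted p = 0.312). Kmt2d, a histone H3 lysine methyltransferase, rose in Eµ-MTCP1 by 0.81 ± 0.20 on the log2 scale (adjusted p = 0.0274). The number called was 1 to 5 for Eµ-MTCP1, and 1 to 4 for Eµ-TCL1, with 1 library left out, and 5 to 7 and 2 to 6 under the other alternatives, where DESeq2 called 7 and 6.

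Over these lists and those of the single orthologs, 209 genes were tested, each counted once, of which 14 (6.70%) were called in Eµ-MTCP1 and 11 (5.26%) in Eµ-TCL1, beside 9.48% and 9.20% of all genes. With each of the 9 libraries left out in turn, 3 and 2 calls were kept throughout, those of Ccne1, Ddb2 and Klhl6 in the first comparison and of Chd3 and Klhl6 in the second, and every other call was lost in at least 1 of the 9 fits. The least stable calls in Eµ-MTCP1 were Phf5a, kept in 0 fits, Tinf2 in 1, Gadd45a in 2 and Cxcr4 in 3. In Eµ-TCL1 they were Phlda3 and Cxcr4, both kept in 3. The highest adjusted p that a lost call reached was 0.186, for Phf5a.

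Genes with the most similar pattern were sought for each ortholog among 8961 genes with a mean of at least 5 CPM, by Pearson's r of log2 CPM over the 9 libraries. Sf3b1 was most like N4bp2l2 (r = 0.995), Xpo1 like Tiprl (0.988), Chd2 like Dnajb6 (0.975) and Pot1a like Fam45a (0.972). Trp53 was most like Fam136a (0.964), Atm like Pcf11 (0.964), Fbxw7 like Psma1 (0.958) and Ikzf3 like Bcdin3d (0.949). The best of 8961 genes over 9 points is high by selection. Dnajb6, which encodes a cochaperone, had log2 fold changes of -0.67 in Eµ-MTCP1 (adjusted p = 0.0769) and -0.70 in Eµ-TCL1 (adjusted p = 0.0636), in the direction of Chd2 by its selection, and none of the 8 genes was called in either model.

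**Figure D5:**
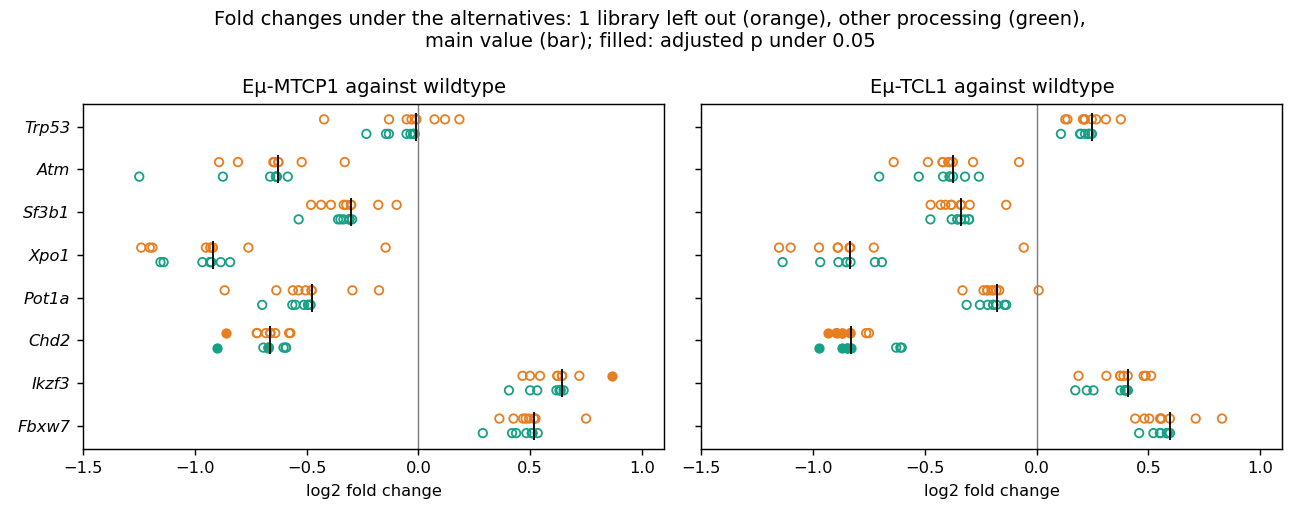
Log2 fold change (horizontal axis) of each ortholog against wildtype with 1 library left out (orange) and under other processing (green), beside the reported value (bar), with filled points where the adjusted p was under 0.05. Filled points are found for Chd2 in both models and for Ikzf3 once in Eµ-MTCP1, and Xpo1 spans -1.24 to -0.15 (Eµ-MTCP1) and -1.15 to -0.06 (Eµ-TCL1).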

How the data were processed

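RNA of splenic B cells was sequenced from 3 mice in each of the 3 groups. Sources of the study name SMARTer and Nextera XT as well as TruSeq stranded kits, CASAVA 1.8.2, HISAT2 2.0.6, featureCounts, DESeq2 and Salmon 1.0.0 with build GRCm38.p4. Estimated counts and TPM per transcript were deposited by the authors from Salmon, on a standard mouse reference and on a reference of coding sequences with human sequences added. Whole counts per gene were also deposited, and a deposited table of normalized log2 values served to check the transgenes only. The authors' own fold changes and p-values in these tables were not used. Transcripts of the coding reference were joined to genes by GENCODE M21 (GRCm38), summed and rounded; 442 were not matched, and 99.7% of those matched have their coding length, so reads in untranslated regions are left out of the main values. On it 22154 genes were summed. Counts were normalized by TMM (factors 0.911 to 1.18), filtered by filterByExpr and tested by edgeR's two-sided quasi-likelihood F test (edgeR 4.0.16, R 4.3.3), without covariates, 1 coefficient per group. The SE is the log2 fold change divided by the square root of F. Alternatives were DESeq2 1.42.0, other scalings, filters and references, and each library left out. The fit was tested on simulated data. Named were the 8 orthologs, up to 4 called genes per list with at least 1 CPM, the most similar gene of each ortholog and Pot1b; Ddb2, Kmt2d, Npat and 1810026B05Rik were added with values known. The orthologs and lists were chosen with earlier results of these data known. One B-cell marker is not reported here and was left out of that list's sum. Medians over genes under 1200, 1200 to 3000 and over 3000 coding bases differed from 0 by at most 0.08 in both comparisons. The reads carry no molecular identifiers, so counts hold amplification copies.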

Additional observations from a re-analysis of the deposited data

How the results depend on the processing

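No paired analysis was possible because replicate numbers were given in accession order and tie no mouse to another. Of 408 fold changes recomputed over 3 comparisons, 8 orthologs and 17 alternatives, 384 kept their direction and side of the threshold, 7 lost a call (Chd2 in Eµ-TCL1), 4 gained one (Chd2 and Ikzf3 in Eµ-MTCP1) and 13 reversed; the causes were not tested. The number of orthologs called in Eµ-MTCP1 was 1 with library size alone and with DESeq2, against 0, and 0 to 2 with 1 library left out. In Eµ-TCL1 it was 0 with the standard reference, with the deposited gene counts and with transcript-length offsets, against 1, and 0 to 1 with 1 library left out. Between the models it was 0 under all 17. Reversed values of Trp53 in Eµ-MTCP1 lay at 0.07 to 0.18, within -0.42 to 0.18 with 1 library left out, and Pot1a in Eµ-TCL1 spanned -0.33 to 0.0090. Between the models Sf3b1 was 0.060 with library size alone, 0.057 with the standard reference and 0.046 with the gene counts, and -0.16 to 0.098 with 1 library left out, Xpo1 -0.074 to 0.31, Pot1a -0.045 to 0.69 and Fbxw7 -0.036 to 0.22. Library size alone moved the median of all genes to -0.26 in Eµ-MTCP1 and -0.15 in Eµ-TCL1, so that Chd2 at -0.90 lies 0.65 below that median, close to the reported value. It also turned the balance of calls over all genes in Eµ-MTCP1 from 613 higher and 446 lower to 391 and 730, and in Eµ-TCL1 from 566 and 461 to 446 and 593. Over all genes DESeq2 called 1646 in Eµ-MTCP1 and 1695 in Eµ-TCL1, beside 1059 and 1027, and between the models 73 beside 5, with 16 without the expression filter; without wildtype Z2754 525 and 517 were called, without Z2755 567 and 550, and without Z2551 599 in Eµ-MTCP1 and without C1594 658 in Eµ-TCL1. Leading transcript shares could not reach the threshold for a single ortholog, so their 0 calls of 8 say nothing of stability. Their reversed differences were, in percentage points, 0.039 (reference with human sequences) and 0.39 (TPM) for Sf3b1, 7.36 (reference with human sequences) and up to 3.61 with 1 library left out (lowest -4.74) for Pot1a, -0.85 to 0.56 with 1 library left out for Chd2, and -2.46 (TPM) for Ikzf3. Where a library was left out, the remaining 2 of its group were fitted with the spread of all libraries. With 3 mice per group, the 95% intervals of the 8 orthologs were 0.84 to 1.90 wide on the log2 scale.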
